A study of Homo sapiens with 6 samples.

Results

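The WNT genes described here are the WNT ligands, their Frizzled receptors and LRP5 and LRP6 co-receptors, the R-spondin ligands with their LGR receptors, the secreted DKK and SFRP antagonists, and the AXIN scaffolds. The rule takes every row of the expression table whose gene symbol belongs to one of these families and uses no measured value, although the families were picked with earlier results of these data known. Of 35268 rows with a gene name, 48 were members: 19 WNT ligands, 4 R-spondins, 10 Frizzled receptors, 2 LRP co-receptors, 3 LGR receptors, 4 DKK and 4 SFRP antagonists and 2 AXIN scaffolds. Transcript levels come from mRNA sequencing of Rh30, an established cell line from a fusion-positive rhabdomyosarcoma, a childhood tumor of the muscle lineage that carries the PAX3-FOXO1 fusion gene. Cells received YK-4-279, a small molecule directed at ETS-family transcription factors, at 1 µM for 24 hours, or its solvent DMSO alone, with 3 libraries per group. Both groups are the same line, grown in the same serum-containing medium. The question of the comparison was how the drug changed transcript levels in these cells. A single line limits what the values say about other tumors.

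WNT ligands are secreted, lipid-modified glycoproteins that bind Frizzled receptors. In the canonical branch, a Frizzled receptor paired with LRP5 or LRP6 draws AXIN away from the complex that marks β-catenin for destruction, and β-catenin then acts with TCF/LEF factors in the nucleus. In the non-canonical branches, ligands such as WNT5A and WNT11 act through Frizzled and ROR-type receptors on cell polarity and calcium without β-catenin, and in muscle development both branches are known to bear on the formation and differentiation of myogenic cells.

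The libraries held 16724650 to 24677433 reads on named genes. Values are normalized counts, that is, reads divided by a factor of the library. The test was limma on log2(normalized count + 1), a scale that understates fold changes of low genes, in the 13930 genes whose mean over all 6 libraries reached 10. An adjusted p under 0.05 (Benjamini-Hochberg over all genes tested) counts here as a call. It was reached by 475 genes, 3.41% of those tested. The library that differed most from the rest was DMSO replicate 1, whose correlations with the other 5 averaged 0.989 (no other library was under 0.992), and without it 1823 genes, 13.1%, were called. The labels do not say whether the replicates are separate cultures, so the p-values measure the spread between these libraries only, and 3 against 3 libraries allow no exact permutation p below 0.1 for a single gene. The muscle lineage markers were all present, led by MYOD1, and none of the 6 was called, with 3 positive and 3 negative estimates. The groups did not overlap for MYOG, DES and MYMK, each higher with the drug, and overlapped for MYOD1, CHRNA1 and CDH15. The share without overlap was 3 of 6, beside 10.9% of all genes in that direction and 26.0% in either direction. Leukocyte markers summed to at most 1.00 normalized count in any library, fibroblast markers to 326 to 482, with DCN near 0, and endothelial markers to 33.4 to 48.0. The 4 epithelial markers summed to 61.8 to 70.6 in DMSO and 71.7 to 96.0 with the drug, most of it EPCAM, for which the groups overlapped, with KRT20 at a mean under 10 and CDH1 and KRT5 at or near 0. The part of these markers in the results was not tested. A value of 0 or near 0 does not by itself show absence in this table: SUPT4H1, a transcription elongation factor used by every cell, is listed at 0 reads in all libraries, and ALDOA, a glycolytic enzyme, at 13 to 22 reads.

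Rh30 cells expressed a broad set of WNT genes. Of the 48 members, 28 reached a mean of 10 normalized counts and were tested, 10 lay under that mean and 10 are listed at 0 in all 6 libraries. The tested members were 10 WNT ligands, 8 Frizzled receptors, both LRP co-receptors, LGR4 and LGR5, DKK1 and DKK3, SFRP1 and SFRP4, and both AXIN genes. DKK1 reached the mean of 10 only through the drug libraries, with 8.88 in DMSO. No R-spondin reached the mean. Among the ligands, WNT16 had 1 to 10 reads per library, WNT2 0 to 6, WNT9B 0 to 4, WNT7B 0 to 3 and WNT8B 0 to 2, and WNT1, WNT3A, WNT7A and WNT8A are listed at 0. For the R-spondins, RSPO2 had 0 to 9 reads and RSPO1 0 to 1, and RSPO3 and RSPO4 are listed at 0. FZD9, FZD10, LGR6 and SFRP2 are listed at 0 as well. Among the antagonists, DKK2 had 4 to 11 reads, SFRP5 2 to 7 and DKK4 0 to 2.

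Levels of different genes were compared as normalized counts per kilobase of canonical transcript. On this scale LRP5 was the highest member, with a mean level of 898 over the 6 libraries, above 89.1% of all genes tested. WNT5B at 441, FZD8 at 385, AXIN1 at 326, FZD2 at 322, LGR4 at 313, FZD1 at 311, WNT11 at 295 and WNT5A at 269 followed. From AXIN1 to WNT11, each gene differed from the next in this order by less than the larger of their SDs over the DMSO libraries, and these SDs were 31.9 for AXIN1, 29.2 for FZD2, 19.3 for LGR4, 12.2 for FZD1 and 46.1 for WNT11. The order depends on the transcript model: with the length of all annotated exons, WNT5B ranked 7 instead of 2, AXIN1 9 instead of 4 and DKK3 19 instead of 12, while LRP5 ranked 1 by both lengths.

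**Figure D1:**
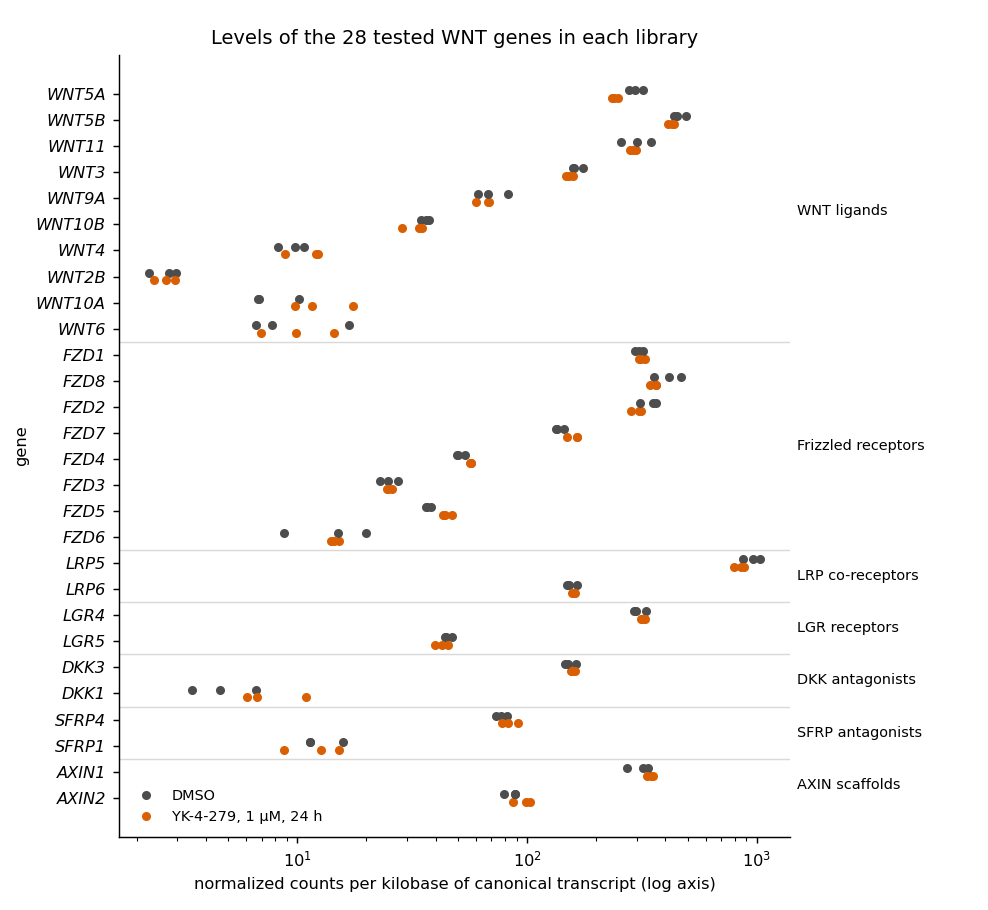
Level of each of the 28 tested members in each library, in normalized counts per kilobase of canonical transcript on a log axis, with 1 point per library, DMSO in grey and YK-4-279 in orange, grouped by family. LRP5 sits at the top with a mean of 898, WNT2B at the bottom with 2.67, and the points of both groups lie close together in most rows.

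WNT5A, the ligand best known for non-canonical signaling, fell with the drug and was the only member called. The gene lies on the minus strand at chr3:55465715-55490539 (hg38, GENCODE), and its canonical transcript has 5 exons. It read 1864, 1619.8 and 1726 normalized counts in DMSO replicates 1, 2 and 3 and 1366, 1389.8 and 1449.7 in YK-4-279 replicates 1, 2 and 3. All 3 drug libraries lay below all 3 DMSO libraries. The means were 1736 ± 122 and 1402 ± 43.2 (SD, n = 3 each), for which the log2 fold change was -0.31 (95% confidence interval -0.45 to -0.16, standard error 0.07, limma adjusted p = 0.0285), or a change of -19.3% in the mean. Because the libraries are bulk, fewer cells that make the transcript and less transcript per cell cannot be told apart. Without DMSO replicate 1 the log2 fold change was -0.25 (limma adjusted p = 2.3e-04). The call was lost without DMSO replicate 3 (limma adjusted p = 0.0796) and without YK-4-279 replicate 1, 2 or 3 (limma adjusted p = 0.195, 0.159 and 0.113), with the log2 fold change between -0.36 and -0.25 over the 6 fits that left out 1 library. It was also lost with quantile normalization, with eBayes without trend and with the replicate number as a block (limma adjusted p = 0.0692, 0.144 and 0.0763).

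RefSeq windows were given for 2 transcription starts of WNT5A, and the 250 bases before each are shown because WNT5A was the only member called with all libraries. The windows of FZD8 and LRP5 are shown beside them because these are 2 of the 3 members that gained a call without DMSO replicate 1. All are on GRCh38.p14 and read 5′ to 3′ on the strand of the gene, and capitals mark matches to the motifs GGAAGT (an ETS-type core), CAGCTG (an E-box of the type bound by MYOD1), CTTTGAT or CTTTGAA (TCF/LEF-type), searched on both strands.
WNT5A upstream start, chr3:55487307-55487556, minus strand: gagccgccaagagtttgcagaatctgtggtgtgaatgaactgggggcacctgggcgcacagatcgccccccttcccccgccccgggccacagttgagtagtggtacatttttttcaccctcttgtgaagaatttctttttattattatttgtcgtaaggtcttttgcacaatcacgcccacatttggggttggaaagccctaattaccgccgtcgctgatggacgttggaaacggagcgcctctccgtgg
WNT5A downstream start, chr3:55481399-55481648, minus strand: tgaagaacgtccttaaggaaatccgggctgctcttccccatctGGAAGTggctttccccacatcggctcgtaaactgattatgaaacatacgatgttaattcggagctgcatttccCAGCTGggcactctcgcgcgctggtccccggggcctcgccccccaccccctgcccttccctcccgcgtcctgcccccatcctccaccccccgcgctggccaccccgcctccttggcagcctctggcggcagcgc
FZD8, chr10:35642297-35642546, minus strand: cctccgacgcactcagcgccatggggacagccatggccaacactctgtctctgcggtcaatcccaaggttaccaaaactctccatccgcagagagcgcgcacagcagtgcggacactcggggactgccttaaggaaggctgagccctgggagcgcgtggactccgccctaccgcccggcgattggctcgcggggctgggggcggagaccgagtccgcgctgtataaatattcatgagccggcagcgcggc
LRP5, chr11:68312341-68312590, plus strand: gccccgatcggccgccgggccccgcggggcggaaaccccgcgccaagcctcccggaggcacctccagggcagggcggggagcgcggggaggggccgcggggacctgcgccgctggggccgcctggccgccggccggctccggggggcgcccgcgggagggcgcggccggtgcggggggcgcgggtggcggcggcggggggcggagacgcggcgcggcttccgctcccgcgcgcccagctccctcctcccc

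The window before the downstream WNT5A start held GGAAGT beginning 207 bases before the start and CAGCTG beginning 134 bases before it, and the other windows shown held none of these motifs. Windows were given for 32 of the 48 members, 37 windows in all. GGAAGT was present in 5 of the 37 (13.5%), those of WNT5A, WNT5B, FZD1, FZD9 and LGR6, against 19.5% of the 35116 windows of all genes. CAGCTG was also present in 5 (13.5%), against 14% of all windows. The longer ETS-type consensus CCGGAAGT was present in 0 of the 37, against 3.42% of all windows. CTTTGAA was present in 1 of the 37, that of DKK1, against 3.80% of all windows, and CTTTGAT in 0, against 2.26%. The median GC content was 68.8% over the members' windows and 58.0% over all windows, and among those shown it ran from 52.8% at the upstream WNT5A start to 87.2% at LRP5. These matches are a description of letters in these windows and not of binding.

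Among the other ligands, 5 of 9 estimates were negative and none was called. WNT5B, the close paralog of WNT5A, read 973, 1100.2 and 1000.3 normalized counts in DMSO and 958, 977 and 919 with the drug. The groups overlapped, in DMSO replicate 1 and YK-4-279 replicate 2 (log2 fold change -0.11, standard error 0.07, limma adjusted p = 0.46), and the estimate was -0.05 without DMSO replicate 2. WNT11, a non-canonical ligand, read 485, 661 and 569 in DMSO and 567, 534 and 549 with the drug. Its 3 drug values fell inside the range of the DMSO values, whose lowest was DMSO replicate 1. WNT3, a canonical ligand, read 525, 521 and 577 normalized counts in DMSO and 498, 487 and 522 with the drug. WNT9A read 246, 329.8 and 269.7 in DMSO and 269.9, 274 and 240.1 with the drug. For both genes the groups overlapped, with log2 fold changes of -0.11 (limma adjusted p = 0.518) and -0.10 (limma adjusted p = 0.688). The WNT3 estimate was -0.06 without DMSO replicate 3, and that of WNT9A turned to 0.02 without DMSO replicate 2. The lower ligands were less precisely measured. WNT10B went from 81.4 ± 3.23 to 72.8 ± 7.51 normalized counts, WNT4 from 38.1 ± 4.96 to 44 ± 7.69, and WNT2B and WNT6 had equal rounded means in both groups, 29.7 and 17.9 (n = 3 each). WNT10A read 16.2 ± 4.01 in DMSO and 26.6 ± 8.33 with the drug, the largest estimate among the members (log2 fold change 0.66, 95% confidence interval -0.0044 to 1.33, limma adjusted p = 0.272), which was 0.43 without YK-4-279 replicate 1. The groups overlapped in that DMSO replicate 3 lay above YK-4-279 replicate 3. WNT2B shares 21.5% of its exon length with ST7L and WNT11 8.60% with a long noncoding RNA, both on the opposite strand, and the strand setting of the counting is not given in the sources used here, so reads of such partners cannot be told apart.

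Summed per kilobase over all WNT ligands, the level was 1294, 1432 and 1355 in DMSO replicates 1, 2 and 3 and 1256, 1244 and 1239.9 with the drug. The drug libraries lay below the DMSO libraries. WNT5B made up 33.6% of the summed level in DMSO and 34.1% with the drug, WNT11 22.0% and 23.2%, and WNT5A 21.9% and 19.3%. The sums and shares rest on canonical transcript lengths. Per kilobase of all annotated exons the mean levels over the 6 libraries lay closer together, at 237 for WNT11, 233 for WNT5B and 219 for WNT5A. The sums follow the most abundant ligands and were not tested.

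Of the 8 tested Frizzled receptors none was called, with 6 positive and 2 negative estimates. FZD5, FZD7 and FZD4 were each higher in all 3 drug libraries than in any DMSO library, 37.5% of the receptors beside 10.9% of all genes tested, and FZD8 and FZD2 had the negative estimates. FZD5 read 257, 257 and 268 normalized counts in DMSO and 332, 309 and 304 with the drug, a change from 261 ± 6.36 to 315 ± 14.7 (log2 fold change 0.27, standard error 0.09, limma adjusted p = 0.133). FZD7, a receptor with known roles in muscle stem cells, read 617, 665 and 614 in DMSO and 755, 755 and 687 with the drug (log2 fold change 0.21, standard error 0.08, limma adjusted p = 0.157). FZD7 passed the threshold without DMSO replicate 1, with a log2 fold change of 0.20 and a limma adjusted p of 0.0429, and FZD5 did not, with 0.26 and 0.0636. FZD4, which also serves as the receptor for the non-WNT ligand Norrin, read 398, 369 and 367 in DMSO and 419 in each drug library (log2 fold change 0.15, standard error 0.08, limma adjusted p = 0.361). FZD4 shares 18.9% of its exon length with PRSS23 on the opposite strand.

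**Figure D2:**
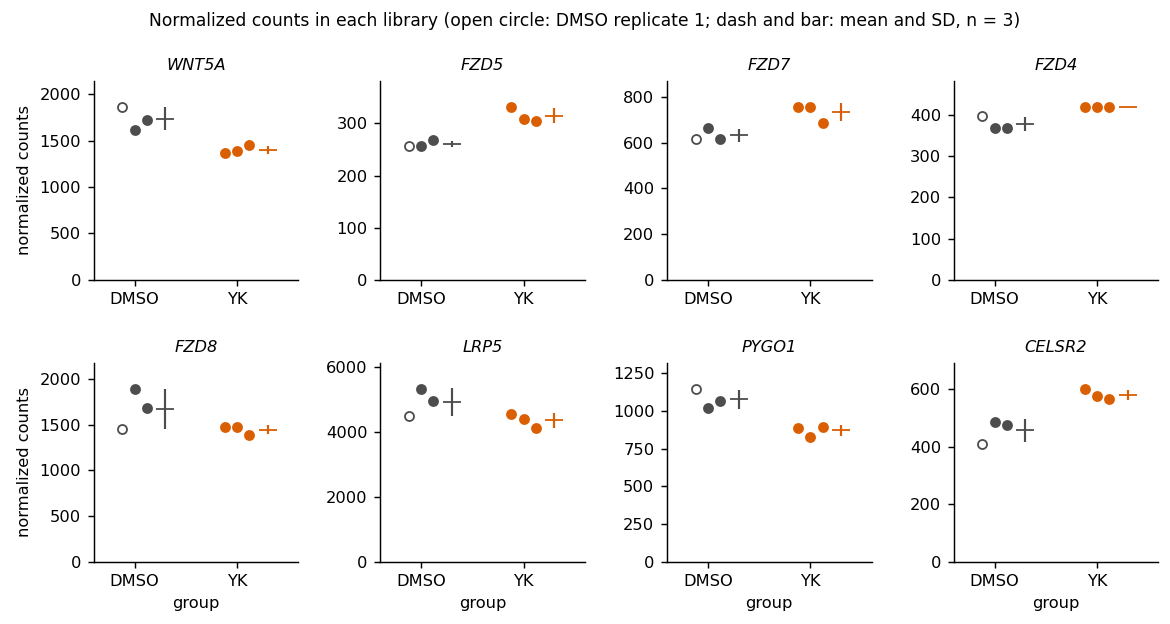
Normalized counts in each library for WNT5A, FZD5, FZD7, FZD4, FZD8, LRP5, PYGO1 and CELSR2, on axes that start at 0, with 1 point per library and the mean and SD of the 3 libraries beside them. DMSO replicate 1, the open circle, is the lowest DMSO library for FZD8 and LRP5, at 1448 and 4490.0 normalized counts, and the highest for WNT5A, at 1864.

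FZD8 read 1448, 1891 and 1682 normalized counts in DMSO and 1471, 1479 and 1388 with the drug. DMSO replicate 1 lay among the drug libraries, and DMSO replicates 2 and 3 above all of them. The log2 fold change was -0.20 with all libraries (standard error 0.09, limma adjusted p = 0.229) and -0.30 without DMSO replicate 1 (limma adjusted p = 2.4e-05), but -0.11 without DMSO replicate 2 (limma adjusted p = 0.448). FZD8 shares 7.85% of its exon length with a long noncoding RNA on the opposite strand and 2.0% with MIR4683 on the same strand. FZD2 read 1377, 1335 and 1168 in DMSO and 1185, 1162 and 1073 with the drug (log2 fold change -0.18, standard error 0.08, limma adjusted p = 0.233). Here DMSO replicate 3 lay among the drug libraries, and the estimate was -0.13 without DMSO replicate 1. FZD1, the receptor with the highest normalized counts, read 2029, 2196 and 2117 in DMSO and 2239.9, 2159 and 2117 with the drug. FZD3, which acts in planar polarity, read 377, 342 and 316 in DMSO and 357, 337 and 343 with the drug. For these 2 receptors the groups overlapped and the 95% confidence intervals of the log2 fold change ran from -0.09 to 0.17 for FZD1 and from -0.20 to 0.21 for FZD3. FZD6 was low, at 54.2 ± 20.6 in DMSO and 54.2 ± 2.21 with the drug, and its lowest value, 32.8, was DMSO replicate 1.

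Within each library, the share of each receptor in the summed Frizzled level per kilobase does not depend on the factor of the library. FZD8, FZD2 and FZD1 made up most of that level, with 31.1%, 25.8% and 23.1% in DMSO and 28%, 23.7% and 24.7% with the drug. FZD7 held 10.5%, 10.3% and 10.4% in the DMSO libraries and 12.6%, 12.8% and 12.3% in the drug libraries, so that for this share DMSO replicate 1 did not stand apart. FZD5 held 2.80% ± 0.193 in DMSO and 3.51% ± 0.0987 with the drug. The FZD8 share was lower in DMSO replicate 1, at 28%, than in DMSO replicates 2 and 3, at 33.0% and 32.2%. The shares in a library add up to 100%, so they are not independent, and they were not tested.

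**Figure D3:**
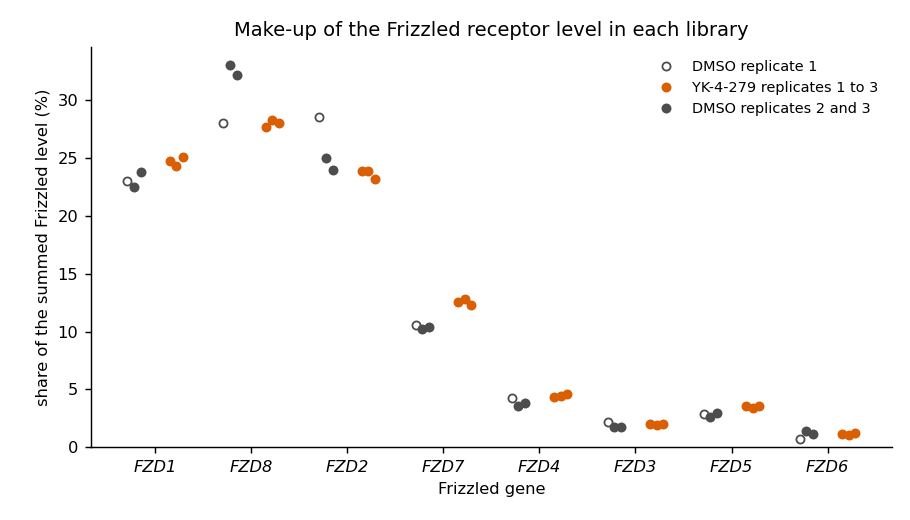
Share of each Frizzled receptor in the summed Frizzled level per kilobase, in percent, with 1 point per library. The drug libraries hold 12.3% to 12.8% of FZD7 against 10.3% to 10.5% in the DMSO libraries, and for FZD8 the open circle of DMSO replicate 1 lies among the drug libraries.

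LRP5 and LRP6, the co-receptors that Frizzled receptors need for β-catenin signaling, had estimates of opposite sign, and neither was called. LRP5 read 4490.0, 5333 and 4963 normalized counts in DMSO and 4569.7, 4411 and 4117 with the drug. As for FZD8, DMSO replicate 1 lay among the drug libraries and DMSO replicates 2 and 3 above them. The log2 fold change was -0.17 with all libraries (standard error 0.07, limma adjusted p = 0.204) and -0.24 without DMSO replicate 1 (limma adjusted p = 6.7e-05), but -0.11 without DMSO replicate 2 (limma adjusted p = 0.367). LRP6 read 1689.6, 1558 and 1533 in DMSO and 1651, 1605 and 1633 with the drug, with a 95% confidence interval of the log2 fold change from -0.10 to 0.17. Per kilobase LRP5 held 85.9% ± 1.64 of the summed level of this pair in DMSO and 84.1% ± 0.699 with the drug.

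LGR4 and LGR5 bind R-spondins and thereby keep Frizzled receptors at the cell surface. LGR4 was present at 1724, 1533 and 1569.7 normalized counts in DMSO and 1651, 1714 and 1662 with the drug. LGR5, a stem cell marker in several epithelia, was present at 200.5, 204 and 216 in DMSO and 196, 183 and 208 with the drug. The groups overlapped for both receptors, and the 95% confidence interval of the log2 fold change was -0.08 to 0.20 for LGR4 and -0.31 to 0.15 for LGR5. The R-spondin ligands of these receptors had at most 9 reads in any library.

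None of the 4 tested secreted antagonists was called. DKK3, a family member whose role in WNT signaling is unsettled, had the highest normalized counts, at 412, 369.7 and 379.9 normalized counts in DMSO and 393, 407 and 397 with the drug (log2 fold change 0.05, standard error 0.09, limma adjusted p = 0.817). It shares 47.5% of its exon length with USP47 on the opposite strand. Per kilobase of all annotated exons SFRP4 lay above it, at 65.9 against 32.9, and per kilobase of canonical transcript below it, at 80.6 against 156. SFRP4, which binds WNT ligands outside the cell, read 235, 209.8 and 220.4 in DMSO and 236, 263 and 222 with the drug, with overlapping groups (log2 fold change 0.12, limma adjusted p = 0.597, and 0.05 on the log2 scale without YK-4-279 replicate 2). SFRP1 read 57.5 ± 11.4 and 54.4 ± 14.5. DKK1, which blocks LRP5 and LRP6, read 8.88 ± 2.88 in DMSO and 14.2 ± 4.81 with the drug. Its highest DMSO value, 12, lay within the drug range of 10.9 to 19.7, and the 95% confidence interval of its log2 fold change, -0.23 to 1.47, includes 0. DKK1 passed the filter, with a mean of 11.5 over all 6 libraries, only through the drug libraries, since its DMSO mean lay under 10. Its estimate and interval are therefore a description and no support for a change. It shares 10.2% of its exon length with PRKG1-AS1 on the opposite strand.

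AXIN1 and AXIN2 scaffold the complex that marks β-catenin for destruction, and AXIN2 is in addition a widely used target gene of β-catenin. AXIN2 read 338, 376 and 378 normalized counts in DMSO and 369, 438 and 420.2 with the drug. YK-4-279 replicate 1 lay within the DMSO range and the other drug libraries above it (log2 fold change 0.17, standard error 0.10, 95% confidence interval -0.04 to 0.37, limma adjusted p = 0.373). AXIN1 read 1011, 1239 and 1181 in DMSO and 1284, 1236 and 1305 with the drug (log2 fold change 0.16, standard error 0.08, limma adjusted p = 0.294). Its lowest value was DMSO replicate 1, without which the estimate was 0.08. AXIN2 shares 25.3% of its exon length with another gene model on the same strand, and how the counting divided such reads is not given in the sources used here.

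In all, 1 of the 28 tested members was called, 3.57%, beside 3.41% of all genes tested. By direction, 0 members were called higher, beside 1.26% of all genes, and 1 was called lower, beside 2.15%. Groups did not overlap for 4 members, 14.3%, of which 3 were higher and 1 lower, beside 26.0% of all genes. Without DMSO replicate 1 they did not overlap for 12 members, 42.9%, of which 7 were higher and 5 lower, beside 40.8% of all genes. The estimates were positive for 17 members and negative for 11, with a median log2 fold change of 0.04 against -0.01 over all genes. The 17 include DKK1, which passed the filter only through the drug libraries. Under quantile normalization the balance turned, with 13 positive and 15 negative estimates and a median of -0.021 against -0.0015 over all genes. Among the 20 members whose mean reached 100, the estimates ran from -0.31 to 0.27 and the 95% confidence intervals stayed between -0.45 and 0.47. For the 8 tested members under that mean the standard errors were 0.16 to 0.39. When each library was left out in turn, the estimate moved by over 1.5 times or turned sign in at least 1 fit for 22 of the 28 members, and for WNT5A, FZD2, FZD7, FZD4, FZD5 and AXIN2 in none. Without DMSO replicate 1, 4 members were called, FZD7 higher and FZD8, LRP5 and WNT5A lower, beside 13.1% of all genes. After removal of a smooth dependence on GC content and transcript length from each library, 5 were called, all of them lower (FZD2, FZD8, LRP5, WNT5A and WNT5B), beside 13.0% of all genes. On the recovered reads, edgeR called 3.34% and DESeq2 4.56% of all genes, and WNT5A was the only member called by either (edgeR adjusted p = 0.0326, DESeq2 adjusted p = 0.00738). DESeq2 gave no adjusted p for 2161 genes and 5 members, which count in its share as not called. With the replicate number as a block, 1.29% of all genes and no member were called.

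**Figure D4:**
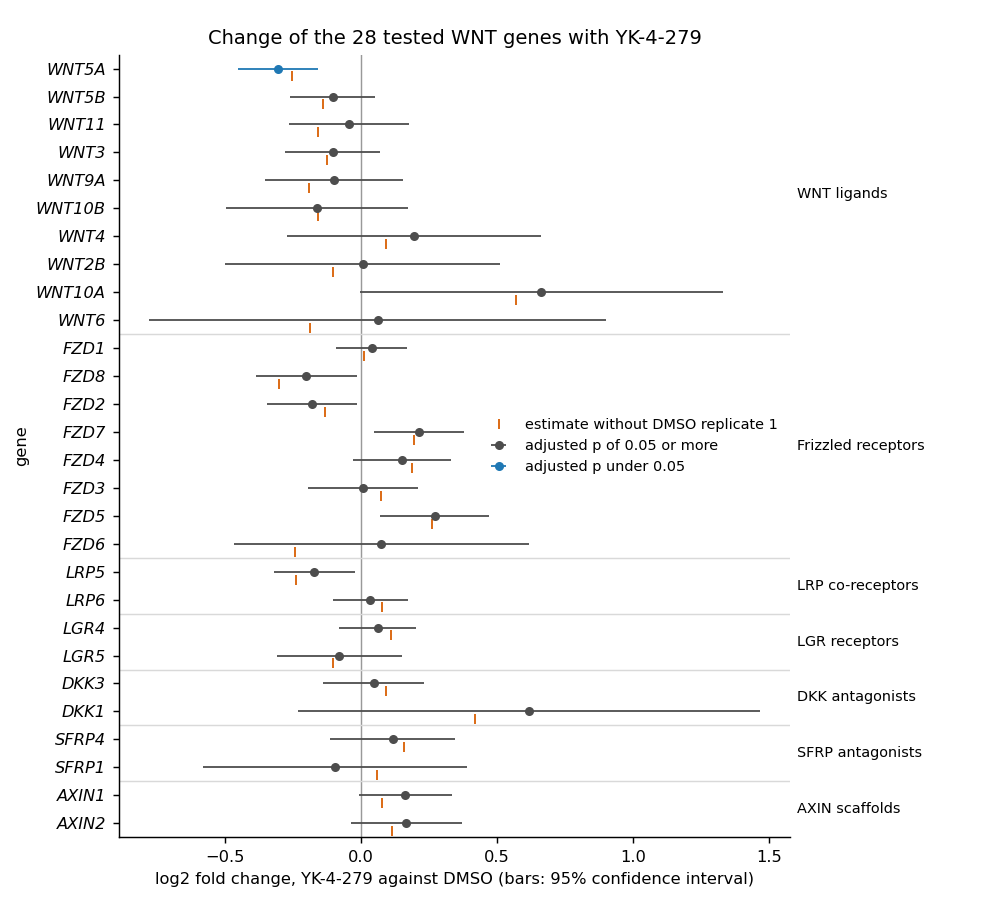
Log2 fold change of each of the 28 tested members, YK-4-279 against DMSO, with 95% confidence intervals from limma over 3 against 3 libraries and the estimate without DMSO replicate 1 as an orange tick. WNT5A, in blue at -0.31, is the only member with an adjusted p under 0.05, and the intervals widen for low members such as DKK1 and WNT6.

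DMSO replicate 1 was the highest or lowest of the 3 DMSO libraries for 24 of the 28 tested members, the lowest for 15 and the highest for 9. That is 85.7% of them, beside 84.7% of the 13705 genes with a GC content, in 5400 of which it was the lowest and in 6206 the highest. Its distance from the mean of the other DMSO libraries went with the GC content of the transcript. Across the 20 members with a mean of at least 100, Pearson's r was -0.836, and across those 13705 genes it was -0.507. Across all 28 members, the low ones included, it was -0.302. These correlations are across genes of the same libraries and genes are not independent replicates. Members rich in G and C such as FZD8 (64.6%), AXIN1 (63.8%) and LRP5 (62.9%) were low in that library, and members poor in G and C such as FZD3 (34.9%), LRP6 (40.9%) and WNT5A (42.3%) were high. Others poor in G and C were low there, with log2 distances of -0.95 for FZD6 (37.7%), -0.59 for DKK1 (43.7%), -0.33 for WNT2B (45.9%) and -0.07 for LGR5 (43.8%), the first 3 of them members with a mean under 100. Between GC content and the log2 fold change of drug against DMSO, r was -0.144 across the 20 members, -0.016 across the 28 and 0.235 across the 13705 genes. The part of GC content in these differences was not tested apart from the fit with its trend removed.

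**Figure D5:**
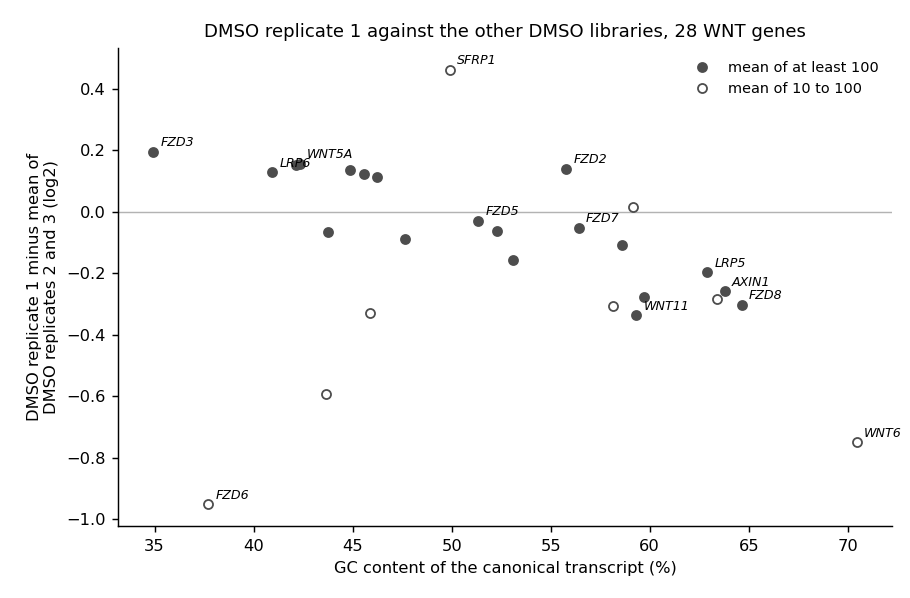
Distance of DMSO replicate 1 from the mean of DMSO replicates 2 and 3, on the log2 scale, against GC content in percent, with 1 point per tested member. The GC content is that of the longest annotated transcript of each gene, although the axis label names the canonical transcript. Among the 20 filled points, which stand for members whose mean reached 100, the distance falls with GC content (r = -0.836), and the open points of the 8 lower members scatter more widely.

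Other genes of the pathway were read from lists by function, 90 genes in all, of which 75 were tested. Of these, 1 rose and 1 fell, 2.67% together beside 3.41% of all genes, and 41 estimates were positive and 34 negative. Without DMSO replicate 1, 17 were called, 7 higher and 10 lower, 22.7% beside 13.1% of all genes. The groups did not overlap for 22 of the 75, 29.3% beside 26.0% of all genes, and without DMSO replicate 1 for 35, 46.7% beside 40.8%. PYGO1, a nuclear co-factor of β-catenin, fell from 1076 ± 64.0 to 871 ± 37.2 normalized counts (log2 fold change -0.30, standard error 0.07, limma adjusted p = 0.0375). It read 1146, 1020.2 and 1063 in DMSO and 888, 828 and 896 with the drug, and the groups did not overlap. CELSR2, a cadherin of the planar polarity branch, rose from 457 ± 40.5 to 582 ± 17.8 (log2 fold change 0.35, standard error 0.09, limma adjusted p = 0.0442). Its DMSO values were 411, 487 and 474 and its drug values 602, 576 and 567, again without overlap. Both calls, like that of WNT5A, were lost without DMSO replicate 3 or any of the drug libraries. They were also lost under quantile normalization (limma adjusted p = 0.0788 for PYGO1 and 0.0605 for CELSR2), eBayes without trend (0.141 and 0.142) and the replicate block (0.0860 and 0.102), and that of PYGO1 under TMM (0.0502).

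Of the 19 cytoplasmic transducers none was called. CTNNB1, which encodes β-catenin, read 10642 ± 805 in DMSO and 9310 ± 203 with the drug (log2 fold change -0.19, limma adjusted p = 0.109), and BTRC, a subunit of the ligase that marks β-catenin, read 2907 ± 168 and 2525 ± 9.51 (log2 fold change -0.20, limma adjusted p = 0.0875). Both were called without DMSO replicate 1, at limma adjusted p-values of 0.0202 and 0.00949. The BTRC estimate was then smaller in size, at -0.16, and that of CTNNB1 ran from -0.22 to -0.13 over the fits that left out 1 library. TLE1, a co-repressor with the highest normalized counts of the 15 nuclear factors, read 4562 ± 96.5 and 4699.8 ± 269. Of the 8 tested genes of ligand secretion and receptor turnover none was called. TRABD2B, a protease that inactivates WNT ligands, had the smallest p there, at 242 ± 23.6 and 179.5 ± 9.63 (log2 fold change -0.42, limma adjusted p = 0.0577, and 0.00127 without DMSO replicate 1), and KREMEN1, a receptor for DKK proteins, the highest counts, at 3482 ± 227 and 3463 ± 146. Among the other antagonists, DACT1 read 142 ± 6.08 and 190.4 ± 26.4 (log2 fold change 0.41, limma adjusted p = 0.0947, and 0.0289 without DMSO replicate 1) and DACT3 223 ± 28.1 and 225 ± 32.8. SCRIB, a polarity scaffold, had the highest normalized counts of the 20 tested non-canonical genes, at 5284 ± 688 and 5516 ± 237.

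No target gene of the pathway was called among the 13 tested. BAMBI, a pseudoreceptor of the TGF-β family and a β-catenin target, had the smallest p, at 63.0 ± 3.47 in DMSO and 89.6 ± 5.76 with the drug (log2 fold change 0.50, limma adjusted p = 0.0902, and 0.0356 without DMSO replicate 1). Without that library 3 targets were called, 2 higher and 1 lower, 23.1% of the 13 beside 13.1% of all genes. They were BAMBI, CCND1 and TNFRSF19, of which CCND1 and TNFRSF19 were named after their values were seen. The groups did not overlap for 4 targets that were higher and 2 that were lower, 46.2% of the 13 beside 26.0% of all genes, and without DMSO replicate 1 for 8, 61.5% beside 40.8%. Over the other 5 lists the share was 12.5% to 33.3%, and 26.3% to 60.0% without that library. The feedback targets NKD1, RNF43 and APCDD1 and the transcription factor ASCL2 are listed at 0 in all libraries.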

How the data were processed

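Polyadenylated RNA of 6 Rh30 libraries (3 DMSO, 3 YK-4-279) was sequenced with paired ends after a directional library preparation. Per the submitters' processing notes, reads were checked with FastQC 0.11.8 and MultiQC 1.8, aligned to hg38 with STAR 2.7.9a and normalized with DESeq2 1.44.0. The annotation release and the strand setting of the counting are not given in the sources used here. The deposited values are a normalized count signal per gene, reads divided by a library factor, as the authors made them. All values (100%) were whole multiples of 1 read within 1e-06, and the libraries held 16724650 to 24677433 reads, whose number sets the precision of low genes. Of 35269 rows, 1 without a name was left out.

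The main test was limma 3.58.1 in R 4.3.3 (lmFit, eBayes with trend, two-sided) on log2(normalized count + 1), restricted to 13930 genes (mean of 10 or more), with Benjamini-Hochberg adjustment over all of them, threshold 0.05. This fit, edgeR 4.0.16 and DESeq2 1.42.0 on recovered reads, and the other alternatives in the closing section were run on the whole table, and the members' rows were read out. Code was tested on simulated data. Members and lists were chosen with earlier results of these data known. Every member with a mean of at least 10 is named with values, and those with a mean of at least 100 or a call with each library's. In each list of other genes, the highest, every called and, with no call, the smallest-p gene are named, except 1 that is not reported here. Positions, lengths and GC content are from GENCODE 44, matched by symbol for all 48 members, and upstream sequences are from RefSeq. No per-sample column was left unused.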

Additional observations from a re-analysis of the deposited data

How the results depend on the processing

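The replicate numbers gave no sign of pairing (correlations of same-numbered deviations -0.098, -0.027 and -0.027). This check cannot show that pairing is absent, because DMSO replicate 1 enters the group mean behind every DMSO deviation. With the replicate block 180 genes, 0 members and 0 other pathway genes were called, against 475, 1 and 2 without it. Quantile normalization called 277 (132 higher and 145 lower, against 176 and 299), 0 and 0, eBayes without trend 33 (30 higher and 3 lower), 0 and 0, and removal of the GC and length trend 1786 (482 higher and 1304 lower), 5 and 13. TMM called 1 other pathway gene. Leaving out each library called 19 to 1823 genes (without DMSO replicate 1 1823, DMSO replicate 3 242, YK-4-279 replicate 1, 2 or 3 19, 23 or 46, of which 15, 16 and 28 were higher, so that most calls were then higher and not lower), 0 to 4 members and 0 to 17 other pathway genes, 0 of either kind without DMSO replicate 3 or any YK-4-279 replicate. DESeq2 left 2161 genes and 5 members without an adjusted p. WNT5A was negative under all 17 alternatives and called under 10, CELSR2 under 10 and PYGO1 under 9. A mean of at least 5 or 50, or a read in every library, counted 30, 23 or 31 expressed members against 28. Estimates near 0 that turned sign, none called, were, under quantile normalization, WNT2B at -0.15, WNT6 -0.13, FZD3 -0.0032, FZD6 -0.050, DACT3 -0.0035 and KREMEN1 0.059, under edgeR WNT2B -0.0013, FZD6 -0.0060 and KREMEN1 0.0092, with the GC and length trend removed WNT6 -0.062, DACT3 -0.047, SCRIB -0.024 and TLE1 -0.033, and for KREMEN1 0.012 under TMM and 0.0052 under DESeq2. Leaving out 1 library, the ranges were -0.157 to 0.065 for WNT11, -0.192 to 0.019 for WNT9A, -0.104 to 0.083 for WNT2B, -0.192 to 0.451 for WNT6, -0.054 to 0.072 for FZD3, -0.243 to 0.332 for FZD6, -0.269 to 0.121 for SFRP1, -0.067 to 0.137 for DACT3, -0.062 to 0.029 for KREMEN1 and -0.041 to 0.143 for SCRIB. The causes were not tested. Of the tested members with a mean under 100, 1 of 8 had a 95% confidence interval within 0.5 of 0 on the log2 scale. The part of depth in this was not tested.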

Other observations

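WNT genes lie in close pairs at 4 places in the genome, and at 3 of them the neighbours read at very different levels. WNT3 and WNT9B on chromosome 17 are separated by 47 bases, and WNT3 had a mean of 541 ± 31.5 normalized counts in DMSO (SD, n = 3), while WNT9B had 0 to 4 reads per library. WNT10B and WNT1 on chromosome 12 are 6.59 kb apart, and WNT10B read 81.4 ± 3.23 in DMSO, while WNT1 is listed at 0. WNT9A and WNT3A on chromosome 1 are 59.1 kb apart, and WNT9A read 282 ± 43.2 in DMSO, while WNT3A is listed at 0. WNT6 and WNT10A on chromosome 2, 6.62 kb apart, were both low, at 17.9 ± 9.65 and 16.2 ± 4.01 in DMSO. Of these 8 neighbours WNT9B, WNT1 and WNT3A were not tested, and none of the other 5 was called.

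Ratios of related receptors within a library were computed after their values had been seen. FZD7 over FZD2, per kilobase, was 0.369, 0.411 and 0.433 in the DMSO libraries and 0.525, 0.536 and 0.528 in the drug libraries, so the groups did not overlap with or without DMSO replicate 1. FZD5 over FZD8 was 0.0907 ± 0.0121 in the DMSO libraries and 0.125 ± 0.00486 in the treated ones (SD, n = 3 each). LRP5 over LRP6 was 6.15 ± 0.791 and 5.31 ± 0.271, with DMSO replicate 1, at 5.26, inside the drug range of 4.99 to 5.48. WNT5A over WNT5B was 0.653 ± 0.0850 and 0.565 ± 0.0337, with DMSO replicate 2, at 0.564, inside the drug range. These ratios describe pairs picked for their values and were not tested.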
